A study of Drosophila melanogaster with 3 samples.

Results

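Oxidative phosphorylation subunit genes were taken as the protein-coding genes on the nuclear chromosomes whose symbols start with ND-, Sdh, UQCR-, COX or ATPsyn. The rule gave 88 of 13968 genes. They comprised 40 genes of complex I (ND-), 8 of complex II (Sdh), 9 of complex III (UQCR-), 16 of complex IV (COX) and 15 of ATP synthase (ATPsyn). The prefixes also take in Sdhaf3, which is an assembly factor of complex II and not a subunit, and they miss subunits with other names. Of the 88 genes, 24 carry an L suffix, which marks a second copy of a subunit gene, and 64 do not.

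The data were ChIP-seq peak lists for CG12391-eGFP, a fusion of the fly protein CG12391 with GFP at its C terminus, made from whole Drosophila melanogaster embryos of both sexes aged 0 to 24 h. The fusion is carried by a transgenic line, chromatin was precipitated through the GFP tag, and the samples form 1 group of 3 biological replicates, with no other genotype or treatment to compare. Embryos of all stages in the window and all cell types were mixed, so a site used in fewer cells and a site used less in each cell cannot be told apart. The labels do not say how the level of the tagged protein compares with that of the untagged one.

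Oxidative phosphorylation runs in the inner mitochondrial membrane. Complexes I and II pass electrons from NADH and succinate to ubiquinone, complex III passes them on to cytochrome c and complex IV to oxygen, and ATP synthase uses the resulting proton gradient to make ATP. Most subunits are encoded in the nucleus, and flies carry extra copies of many of these genes, a number of which are known to be expressed mainly in testis.

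A gene was called bound when a summit lay in the list cut at a threshold of the irreproducible discovery rate (IDR) and stood within 500 bp of any of its transcription start sites (TSSs). Bound genes numbered 47 of the 88 members, or 53.4%, against 34.4% of all protein-coding genes. Any summit of the longer pooled list was found at 58 members (65.9%), against 52.1% of all genes. When each summit was given only to its single nearest TSS, 34 members were bound (38.6%), against 26% of all genes. Among an equal number of highest-signal peaks of each replicate, members with a summit numbered 45 in replicate 1 (51.1%, all genes 35.2%), 37 in replicate 2 (42%, all genes 32.7%) and 44 in replicate 3 (50%, all genes 35.2%). The mean was 47.7% ± 4.95 for members and 34.4% ± 1.43 for all genes (SD, n = 3), and the members were above all genes in every replicate. In peaks shared by the top peaks of all 3 replicates the shares lay closer together, with 29 members (33.0%) against 26.2% of all genes. In peaks of the IDR-thresholded list overlapped by top peaks of replicates 1 and 2, without replicate 3, 31 members were bound (35.2%), against 27.3% of all genes. Here and below, a setting without a replicate is such an overlap filter. The list it is applied to still rests on all 3 replicates, so the filter cannot raise a count.

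The 41 unbound members included 22 of the L-suffixed copies. Of the 64 members without the suffix 45 were bound (70.3%), and of the 24 L-suffixed members 2 were bound (8.33%). Across the replicates the members without the suffix had a top summit in 63.0% ± 7.22 of cases and the L-suffixed ones in 6.94% ± 2.41 (SD, n = 3). No summit of any of the 5 lists lay within 500 bp of a TSS at 17 of the 24 L-suffixed members and at 5 of the 64 others. That share was not computed for all genes. A pooled summit was found at 5 of the 24 (20.8%) and 53 of the 64 (82.8%), against 52.1% of all genes. In peaks common to the remaining replicates, without replicate 3, 29 of the 64 (45.3%) and 2 of the 24 (8.33%) were bound.

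**Figure D1:**
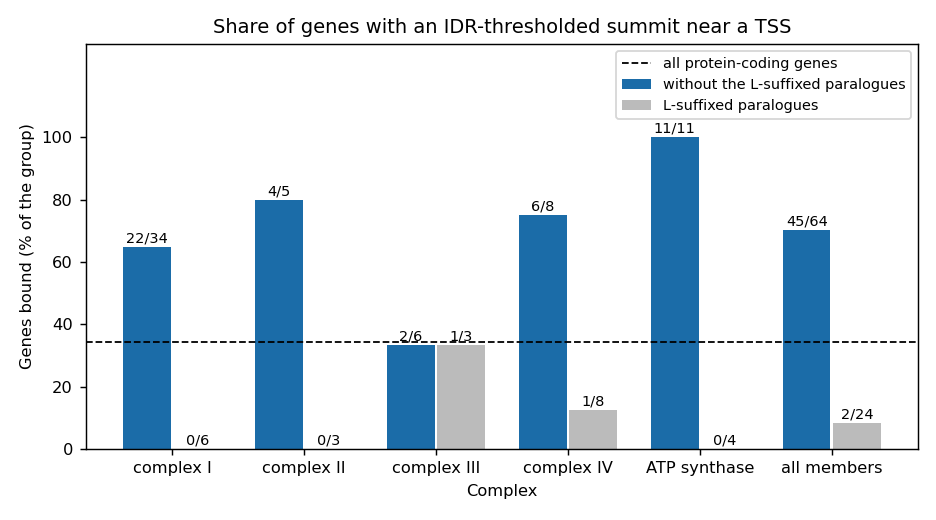
Percentage of genes with an IDR-thresholded summit within 500 bp of a TSS, by complex, for members without the L suffix (blue) and L-suffixed members (grey), with the number bound of the number of genes above each bar; the dashed line is the 34.4% of all protein-coding genes. Every blue bar but that of complex III (2 of 6) stands above the line, and all 11 ATP synthase genes without the suffix were bound.

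Complex I is the entry point for electrons from NADH and the largest of the complexes. Of its 40 genes 22 were bound (55.0%), with 22 of the 34 without the L suffix (64.7%) and 0 of the 6 L-suffixed ones. Without replicate 1, in peaks common to the remaining replicates, 14 of the 40 were bound (35%, all genes 28.6%). The strongest member of all was ND-MWFE, a small accessory subunit, with a deposited signal of 1775 in the IDR-thresholded list. On the chromosome arms its ranks in replicates 1, 2 and 3 were 631, 479 and 437. A rank is that of the strongest summit within 500 bp of a TSS in that replicate, which need not be at the same position in each list. The summit lay 162 bp upstream of the ND-MWFE TSS and 59 bp from that of TppII, the gene for tripeptidyl-peptidase II, which is transcribed the other way.

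ND-ASHI, an accessory subunit of the membrane arm, had a signal of 1540 and ranks of 671, 767 and 438 in replicates 1, 2 and 3. Its summit lay 250 bp upstream, and also within 500 bp of a TSS of the divergent gene Fum1, which encodes fumarase of the citric acid cycle. ND-24, a core subunit of the NADH-oxidising module, had a signal of 1474 and ranks of 900, 726 and 605. These 3 genes stood in the top 1000 peaks of every replicate.

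The 7 core subunits that carry the flavin, the iron-sulfur clusters and the quinone site were read as a group. Bound were 5 of them, ND-24, ND-51, ND-23, ND-30 and ND-20, with IDR-list signals of 1474, 975.02, 969, 515 and 428. The median signal of the bound core subunits was 969, against 307 for the 17 bound among 27 other complex I genes without the L suffix. ND-51, which binds the flavin, ranked 1916, 1616 and 1321 in replicates 1, 2 and 3, and ND-23 ranked 1629, 1334 and 2334. ND-30 ranked 2292 in replicate 2 but 8074 and 8576 in replicates 1 and 3, and its summit lay nearer to CG15812 (194 bp) than to ND-30 (219 bp). ND-20 ranked 3751, 4974 and 4251.

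The other core subunits, ND-75 and ND-49, were not bound. At ND-75, the large iron-sulfur subunit, the pooled list had a summit of signal 51.0, close to the foot of that list, and the nearest IDR-thresholded summit lay 775 bp from a TSS, outside the window, with a signal of 303. ND-49, which lies on the small chromosome 4, had no summit in any list, and its nearest IDR-thresholded summit was 72903 bp away.

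The bound genes with the lowest signals were all in complex I. ND-B14.5A (228), ND-15 (232) and ND-ACP (233), the mitochondrial acyl carrier protein, lay just above the lowest signal of the IDR-thresholded list, 227. ND-B14.5A was among the top peaks of replicates 1 and 3 at ranks 7562 and 5992, and fell outside them in replicate 2 at rank 10233. ND-ACP ranked 9386, 8511 and 10631 and was inside the top 8522 in replicate 2 alone. The unbound members with the highest pooled signals stood below that limit, with UQCR-Q of complex III at 226, ND-39 of complex I at 197 and Sdhaf3 at 127.

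Sequence under strong summits of complexes I, II and IV and ATP synthase is printed here, to show how rich in A and T these promoters are. The windows reach 50 bp to either side of the summit and hold no annotated untranslated bases. They were chosen after their values were seen, and are read on the strand of the named gene. ND-ASHI is at chrX:6679318-6679418, ND-42 at chr3R:22027500-22027600, SdhC at chr3R:11209977-11210077, COX5A at chr3R:11819424-11819524 and ATPsynCF6 at chr3R:23356150-23356250 on dm6. Capitals mark CGATA, the short site bound by BEAF-32, on either strand.
ND-ASHI: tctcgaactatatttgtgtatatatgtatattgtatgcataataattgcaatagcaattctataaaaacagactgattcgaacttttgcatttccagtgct
ND-42: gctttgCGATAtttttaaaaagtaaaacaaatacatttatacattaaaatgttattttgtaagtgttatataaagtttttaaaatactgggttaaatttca
SdhC: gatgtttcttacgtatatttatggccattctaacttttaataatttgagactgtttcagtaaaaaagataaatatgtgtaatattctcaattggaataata
COX5A: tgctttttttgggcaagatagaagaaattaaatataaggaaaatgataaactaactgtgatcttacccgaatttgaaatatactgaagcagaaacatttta
ATPsynCF6: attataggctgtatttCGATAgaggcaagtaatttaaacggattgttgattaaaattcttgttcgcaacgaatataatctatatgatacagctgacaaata

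The A+T content of these windows was 71.3% at ND-ASHI, 81.2% at ND-42, 76.2% at SdhC, 72.3% at COX5A and 70.3% at ATPsynCF6. Over the 47 member summits the mean was 66.2%, against 49.1% in windows 500 bp to either side, and the summit was richer in A+T than its flanks at 42 of them (89.4%, all promoter summits 83%). Over all 4000 promoter summits of the list the means were 66.9% at summits and 53.9% in flanks. The excess at the summit was thus 17.1 percentage points for members and 13.0 for all promoter summits, and the larger excess came with less A+T in the flanks of members. No test of this difference was run.

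Complex II oxidises succinate and is also an enzyme of the citric acid cycle. Of its 8 genes 4 were bound (50%), all of them subunits, SdhA, SdhB, SdhC and SdhD, while Sdhaf3 and the 3 L-suffixed genes were not. SdhC, a membrane anchor, led with a signal of 798 and ranks of 1791, 1634 and 3552 in replicates 1, 2 and 3. SdhA, the flavoprotein, had a signal of 285 with ranks of 4161, 10251 and 6613. SdhB, the iron-sulfur subunit, had a signal of 268 with ranks of 5835, 9059 and 6724. SdhA, SdhB and SdhD all fell outside the top peaks of replicate 2, so that complex II had 4, 1 and 4 members with a top summit in replicates 1, 2 and 3. In peaks common to the remaining replicates, 1 of the 8 genes (12.5%) was bound without replicate 1, against 28.6% of all genes, and 1 (12.5%) without replicate 3, against 27.3%. In both settings the share of complex II was thus below that of all genes.

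Complex III passes electrons to cytochrome c. Of its 9 genes 3 were bound or 33.3%, near the 34.4% of all genes and the lowest share of the 5 complexes in this list. That order did not hold under other settings, since complex II was lower in peaks shared by all 3 replicates (12.5%, against 33.3% for complex III) and complex IV under the single nearest TSS (25%, against 33.3%). UQCR-14 had a signal of 478 and ranks of 3248, 5847 and 3091 in replicates 1, 2 and 3. UQCR-C2, one of the core proteins, had a signal of 353 and ranks of 4029, 6897 and 4932. The other bound gene was the L-suffixed UQCR-6.4L, described with its pair. UQCR-C1 and UQCR-Q had pooled summits of signal 126 and 226, under the IDR threshold, and each was among the top peaks of 1 replicate.

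Complex IV, cytochrome c oxidase, reduces oxygen. Of its 16 genes 7 were bound (43.8%), made up of 6 of the 8 without the L suffix and 1 of the 8 L-suffixed ones. COX5A had a signal of 1190 and ranks of 1012, 1292 and 727 in replicates 1, 2 and 3. Its summit lay in an intron 54 bp from a TSS of the divergent gene glo, which encodes an RNA-binding protein, and 115 bp from the COX5A TSS. COX7B had a signal of 887 and ranks of 2210, 1566 and 1810. COX7AL2, an L-suffixed gene, came next with 595.

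COX4 and COX8 were the complex IV genes without the suffix that were not bound, and were looked at after their values were seen. COX4 had a summit in replicate 1 at rank 3036 and in replicate 3 at rank 4731, 53 and 50 bp from a TSS, but none in replicate 2 or in the pooled list. COX8 had a summit in replicate 2 at rank 992, 156 bp from its TSS, and none in the other 4 lists. At these genes the replicates differed in whether a top summit was present.

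ATP synthase had 11 of 15 genes bound (73.3%), the highest share of the 5 complexes in the IDR-thresholded list, with all 11 genes without the L suffix bound and none of the 4 with it. At a reciprocal overlap of 50% with top peaks of all 3 replicates it had 20%, like complex I and below complex IV at 25%. Across replicates 62.2% ± 3.85 of the 15 had a top summit (SD, n = 3). Without replicate 3, in peaks common to the remaining replicates, 7 of the 15 were bound (46.7%, all genes 27.3%). Signals were of middle size and spread over a narrow range of 277 to 726, with a median of 510. ATPsynE, a membrane subunit, had the highest at 726, yet it ranked 9351 in replicate 1, against 1794 and 2006 in replicates 2 and 3. ATPsynCF6, coupling factor 6 of the stalk, had 635 with ranks of 2590, 2488 and 5955. ATPsyngamma, the rotating shaft, had 613 with ranks of 3608, 2655 and 3852.

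**Figure D2:**
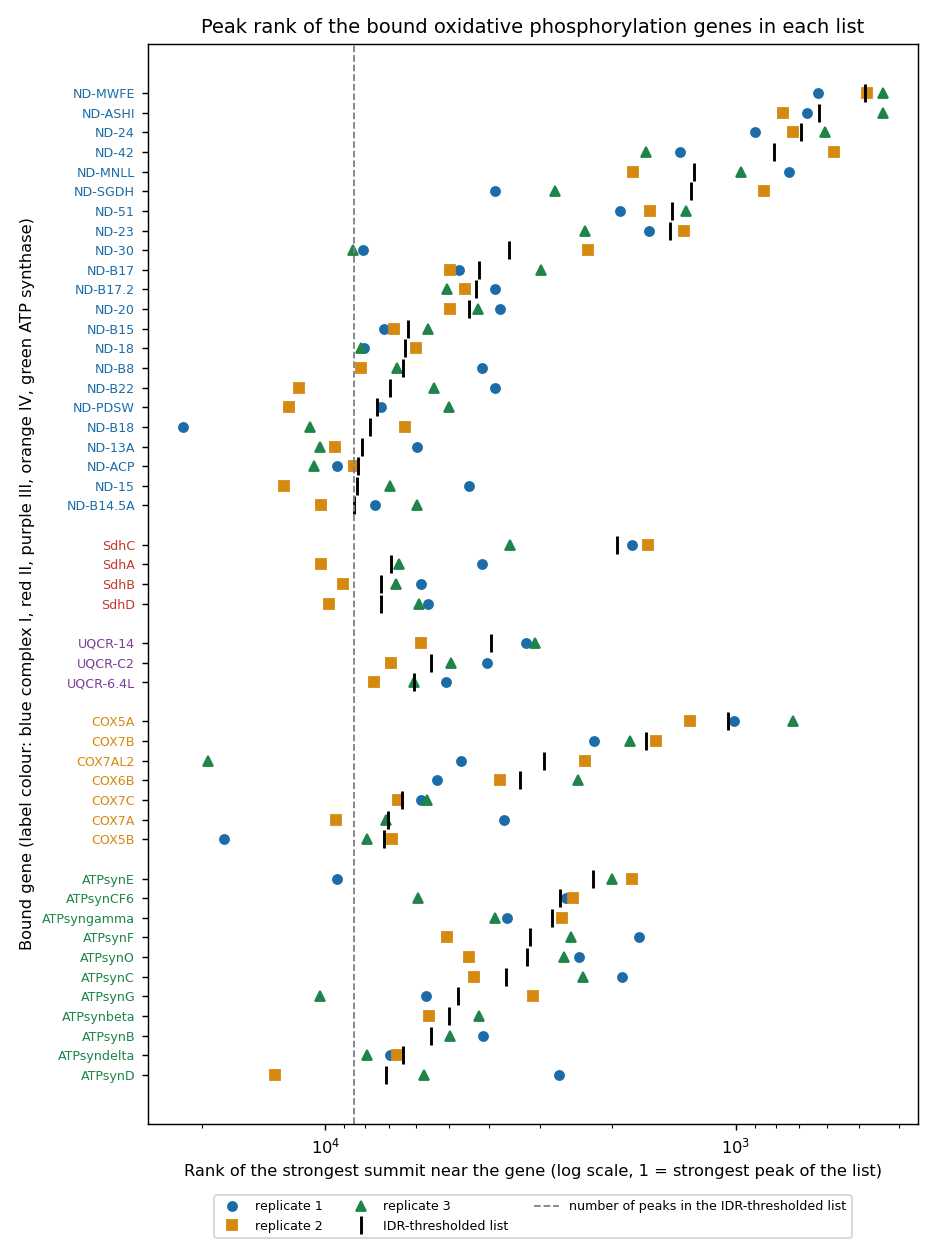
Rank of the strongest summit within 500 bp of a TSS of each of the 47 bound members (rows, grouped by complex) in replicate 1 (circles), replicate 2 (squares), replicate 3 (triangles) and the IDR-thresholded list (bars), on a log axis with the strongest peaks to the right; the dashed line marks rank 8522, the length of the IDR-thresholded list. A row without a symbol had no summit in that replicate; members near the line have ranks on both sides of it, most often through replicate 2, and some stronger ones also spread, such as ATPsynE at 9351 in replicate 1.

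Over the 47 bound members, 28 had a top summit in all 3 replicates, 16 in 2 replicates and 3 in 1 replicate. These counts were not made for all bound genes. By overlap, 29 of the 47 bound members had a peak shared by the top peaks of all 3 replicates. Of all 4801 bound genes 3663 had one, a larger share. Of the 41 unbound members, 35 had no top summit, 5 had one in 1 replicate and 1 in 2. Among members with a summit in both lists, the Spearman correlation of signal was 0.807 between replicates 1 and 3 (n = 55 genes), 0.751 between 2 and 3 (n = 57) and 0.680 between 1 and 2 (n = 53). These describe genes in peak lists called against 1 shared control, and genes are not independent replicates.

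The median signal of bound members was lower than that of bound genes at large. Their median signal was 428, against 562 for all 4801 bound protein-coding genes, and 22 of 47 (46.8%) lay in the stronger 50% of the list, against 62.4% of all bound genes. The cytoplasmic ribosomal protein genes had a higher bound share, 76 of 92 (82.6%), and a median signal of 706. Mitochondrial ribosomal protein genes, whose products make the subunits encoded in the mitochondrion, were bound in 48 of 73 cases (65.8%) with a median of 641. Vacuolar ATPase genes, for a proton pump related to ATP synthase, were bound in 17 of 33 cases (51.5%) with a median of 453. In peaks shared by all 3 replicates the shares were 33.0% for members, 80.4% for cytoplasmic ribosomal, 53.4% for mitochondrial ribosomal and 36.4% for vacuolar ATPase genes. Under the single nearest TSS they were 38.6%, 78.3%, 31.5% and 36.4%, so the mitochondrial ribosomal genes then stood below the members. Members without the L suffix had 70.3% in the IDR-thresholded list, 42.2% in the shared peaks and 50% under the single nearest TSS.

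Parent genes and their L-suffixed paralogues formed 20 pairs, with 18 parents because ND-51 and COX7A have 2 paralogues each. In 15 pairs the parent alone was bound, in 1 the paralogue alone, in 1 both and in 3 neither. Parents were bound in 14 of 18 cases (77.8%) and paralogues in 2 of 20 (10%). Under the single nearest TSS 10 parents (55.6%) and 2 paralogues (10%) were bound, against 26% of all genes. Parents had a top summit in 13, 10 and 14 cases in replicates 1, 2 and 3, and paralogues in 2, 2 and 1. The split therefore appeared in every replicate. In peaks common to the remaining replicates 9 parents (50%) were bound without replicate 1, where 28.6% of all genes were, and 8 (44.4%) without replicate 3, where 27.3% of all genes were, with 2 paralogues each time. The other 4 L-suffixed members, whose parents have names outside the prefixes, were not bound.

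**Figure D3:**
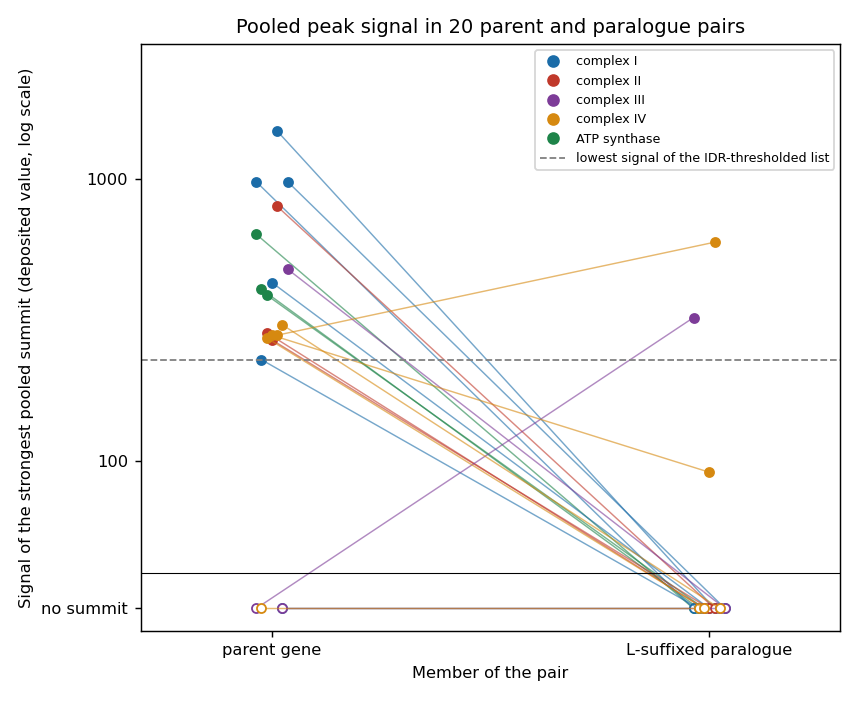
Deposited signal of the strongest pooled summit within 500 bp of a TSS (log axis) for parent genes (left) and L-suffixed paralogues (right), a line for each of the 20 pairs, so that ND-51 and COX7A appear as parents of 2 lines; open circles at the foot mark genes with no pooled summit, and the dashed line is the lowest signal of the IDR-thresholded list. Most lines run from a parent above the dashed line to a paralogue with no summit, and 2 paralogues, COX7AL2 and UQCR-6.4L, lie above it.

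In complex I the pairs with a bound parent were ND-20 with ND-20L, ND-24 with ND-24L, ND-51 with ND-51L1 and with ND-51L2, and ND-B14.5A with ND-B14.5AL. None of these paralogues had a pooled summit, and only ND-51L1 had a summit in any list, at rank 27899 of replicate 3. In complex II SdhAL, SdhBL and SdhCL had no summit within 500 bp in any list. An IDR-thresholded summit of signal 251 lay just outside the window, 751 bp from SdhBL, and summits near it ranked 5083, 10833 and 6856 in replicates 1, 2 and 3. With a window of 1000 bp 3 paralogues were bound. In complex III UQCR-14 had a signal of 478, and UQCR-14L had no summit. In ATP synthase the parents ATPsynCF6, ATPsynG and ATPsynbeta, the last being the catalytic subunit, had signals of 635, 406 and 387. ATPsynCF6L and ATPsynGL had no summit, and ATPsynbetaL had 1 at rank 28859 of replicate 3. The pairs with neither gene bound were those of ND-49, COX4 and UQCR-11. The nearest IDR-thresholded summit lay 72903 bp from ND-49, 17189 bp from COX4 and 2210502 bp from UQCR-11.

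The exceptions were in complexes III and IV. The parent UQCR-6.4 had a summit only in replicate 3, at rank 13071, while UQCR-6.4L was bound at a signal of 322 with ranks of 5086, 7619 and 6064 in replicates 1, 2 and 3. The UQCR-6.4L summit lay in an annotated intron 367 bp upstream of the TSS. COX7A was bound at a signal of 279, and its paralogue COX7AL2 at a higher one, 595. The COX7AL2 summit lay in a 5′ UTR 478 bp downstream of a TSS, with ranks of 4674 and 2325 in replicates 1 and 2. In replicate 3 the summit within the window, at rank 19302, was another one on the upstream side of a TSS, and the COX7AL2 peak of the IDR-thresholded list was nevertheless overlapped by a top peak of all 3 replicates. With a window of 250 bp neither paralogue was bound.

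Pairs that lie close together on a chromosome were split as well. The TSSs of COX7C and COX7CL lie 867 bp apart, those of COX5B and COX5BL 1631 bp and those of COX7A and COX7AL 2626 bp. COX7C (303), COX5B (273) and COX7A (279) were bound. COX7CL and COX5BL had no summit within 500 bp in any list, and COX7AL had a pooled summit of signal 91.2, at rank 17674.

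The promoter of ND-B14.5A and that of its paralogue show the difference in sequence for 1 pair with no annotated untranslated bases. The 100 bp upstream of the outermost TSS are shown for both, at chrX:2172426-2172525 and chr3L:22606269-22606368. The pair was chosen after its values were seen. Capitals mark TATCGATA, the element bound by DREF and BEAF-32, and the shorter CGATA, which also lies within it.
ND-B14.5A: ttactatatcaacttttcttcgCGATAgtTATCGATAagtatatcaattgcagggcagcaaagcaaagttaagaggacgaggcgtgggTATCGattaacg
ND-B14.5AL: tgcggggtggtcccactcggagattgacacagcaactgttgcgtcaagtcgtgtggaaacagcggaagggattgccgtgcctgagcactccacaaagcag

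The parent sequence is 60.0% A+T and holds both words, and the paralogue sequence is 42% A+T and holds neither. Promoters were next scanned from 250 bp upstream to 50 bp downstream of the outermost TSS of each gene, on both strands. TATCGATA was found at 4 of 18 parents (22.2%) and 0 of 20 paralogues, against 9.36% of all genes. CGATA was found at 12 of 18 parents (66.7%) and 8 of 20 paralogues (40%), against 47.3% of all genes. Of all bound genes 16.7% held TATCGATA and 58.6% CGATA. Most parents were bound (14 of 18) and few paralogues (2 of 20), so the pairs also differ in binding. The mean A+T content of these promoters was alike, at 64.8% for parents and 64.3% for paralogues, so the pair printed above does not stand for the rest in that respect.

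GGTCACACT, the core promoter element known as Motif 1 and bound by M1BP, was more frequent in member promoters than in others. It lay in 14 of the 64 promoters of members without the L suffix (21.9%) and in 1 of 24 L-suffixed ones (4.17%), against 6.04% of all promoters. Over all members it lay in 15 of 88 promoters (17%). Among bound genes the word lay in 23.4% of the promoters of bound members (11 of 47), against 11.2% of those of all bound genes. Unbound members held it in 4 of 41 cases (9.76%). TATCGATA did not stand out in the same way, at 14.9% of bound members and 16.7% of all bound genes.

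Stretches of promoters holding these words are shown because they place the same word at genes of 3 complexes, in both orientations, and in a paralogue. They were chosen after their values were seen, and 10 bases are given on each side of the word, which is in capitals. GGTCACACT, or its reverse complement AGTGTGACC, is shown for ATPsynD at chr3R:19094884-19094912, ND-18 at chrX:19492408-19492436, COX5A at chr3R:11819313-11819341, COX7B at chr3L:17425476-17425504, COX4 at chr2L:19958641-19958669 and COX7AL at chr3R:8343497-8343525.
ATPsynD: ggcagctgatAGTGTGACCgacccgaggg
ND-18: ccgctcgcctGGTCACACTggcactggcg
COX5A: ttgaagatgcAGTGTGACCgcaattaaat
COX7B: acaacacaacGGTCACACTgttcaacaca
COX4: ttcgagatgtGGTCACACTtctctgcatg
COX7AL: gagagcgaatAGTGTGACCtaatttggca

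TATCGATA is shown for ND-MNLL at chrX:7893994-7894021, UQCR-14 at chrX:16286216-16286243 and COX7A at chr3R:8341028-8341055.
ND-MNLL: gacgcccactTATCGATAagcggcttgt
UQCR-14: gagtgcgataTATCGATAggtgcagtgt
COX7A: gacatcgatgTATCGATAatacatcgat

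The first base of the GGTCACACT match lay 106 bp upstream of the TSS at ATPsynD, 3 bp upstream at ND-18, 36 bp upstream at COX5A, 62 bp upstream at COX4 and 162 bp upstream at COX7AL, and 9 bp downstream at COX7B. All of these genes but COX4 and COX7AL were bound. COX4 also held TATCGATA, 102 bp upstream. The summits themselves seldom sat on these words. Within 50 bp of a member summit GGTCACACT was found at 3 of 47 (6.38%, all promoter summits 2.27%), TATCGATA at 2 (4.26%, all 4.80%), CATCNCTA, known as Motif 7, at 2 (4.26%, all 2.75%), and CGATA at 13 (27.7%, all 23.8%). The A+T word AAAATATT was found at 5 member summits (10.6%, all 7.42%).

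At member summits 4 other words had no match, namely CACGTG, the E-box (all promoter summits 0.850%), GAGAGAG, the GAGA factor repeat (0.975%), CACACACA (0.850%) and the nuclear respiratory gene element (0.0250%). The last is a palindromic element described upstream of fly nuclear genes for mitochondrial proteins. It was also in none of the 88 member promoters, against 0.158% of all promoters. At such low shares no match was the likely outcome in sets of this size, so the absence of these words says nothing particular about members. All motif counts are matches of letters within the stated windows and say nothing of whether a factor was there.

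**Figure D4:**
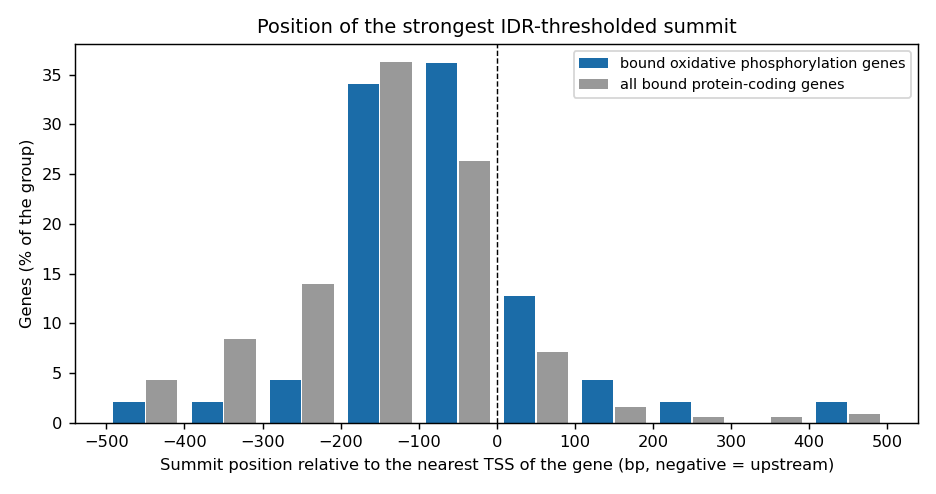
Percentage of genes by the position of the strongest IDR-thresholded summit relative to the nearest TSS of the gene, in bins of 100 bp with upstream to the left, for the 47 bound members (blue) and the 4801 bound protein-coding genes (grey). Members have more summits within 100 bp of the TSS on both sides, 36.2% and 12.8%, than all bound genes have, 26.3% and 7.12%.

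Member summits lay close to the TSS, at a median distance of 102 bp against 137 bp for all bound genes. Within 100 bp lay 23 of 47 (48.9%), against 33.5% of all bound genes. Upstream of the TSS lay 37 of 47 (78.7%), against 89.3%. By annotation 29 member summits were intergenic, 10 were in 5′ UTRs, 7 in introns and 1 in a 3′ UTR, at UQCR-14, where the summit lay 48 bp upstream of the TSS. None lay in coding sequence, where 0.375% of all promoter summits lay. The 5′ UTR share was 21.3% for members and 14.9% for all promoter summits.

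Many members share a promoter region with a neighbour transcribed the other way. A divergent neighbour, with a TSS within 500 bp upstream on the opposite strand, was found at 36 of the 64 members without the L suffix (56.2%), at 3 of the 24 L-suffixed ones (12.5%) and at 27.3% of all genes. Of those 36 genes 29 were bound (80.6%), and of the 28 with no divergent neighbour 16 were bound (57.1%). Over all genes 65.4% with a divergent neighbour and 22.7% without one were bound. The share of members without the suffix was thus above that of all genes in both classes. Of the L-suffixed members 0 of 3 with a divergent neighbour and 2 of 21 without one were bound. None of these differences was tested.

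**Figure D5:**
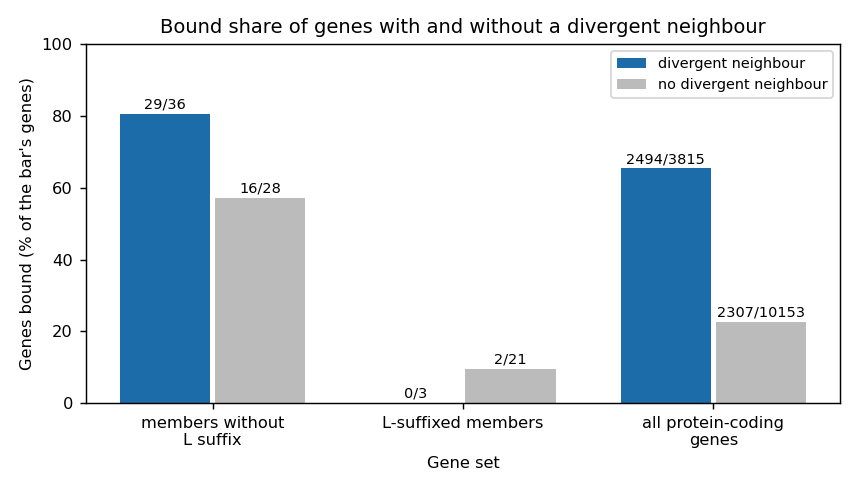
Percentage of genes bound among genes with a divergent neighbour (blue) and without one (grey), for members without the L suffix, L-suffixed members and all protein-coding genes, with the number bound of the number of genes above each bar. Members without the suffix stand above all genes in both classes.

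A summit at a shared promoter cannot be given to 1 of the genes. At 31 of the 47 bound members (66.0%) another protein-coding gene had a TSS within 500 bp of the same summit, against 57.9% of all bound genes. At 14 members (29.8%, all bound genes 28.2%) the other gene was the nearer one. Among the members named above these were ND-MWFE with TppII, ND-30 with CG15812, COX5A with glo, ATPsynCF6 with Sec13, ATPsynG with SCAR, ATPsynbeta with CG11076, COX7A with Arl2 and COX7C with oys. ND-42 was another, with a signal of 1349, and its summit lay 70 bp from Cchl, which encodes cytochrome c heme lyase, against 159 bp from ND-42 itself. ND-ASHI with Fum1, ND-42 with Cchl and ATPsynD with mRpL55, a mitochondrial ribosomal protein gene, were pairs in which both neighbours encode mitochondrial proteins, and were picked out after their values were seen. Such pairs were not counted over all members. ND-B16.6 with kdn, a citric acid cycle gene, is a divergent pair of this kind in which neither gene was bound.

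By chromosome, 10 of 13 members on the X were bound (76.9%), 11 of 16 on 2L (68.8%), 12 of 20 on 3R (60.0%), 6 of 17 on 2R (35.3%), 7 of 20 on 3L (35.0%) and 1 of 2 on chromosome 4. For all genes the shares on these arms lay between 32.7% and 36%, and at 13.8% on chromosome 4. Members on 2R and 3L were thus bound about as often as other genes there. The L-suffixed genes lie mostly on 2R, 3L and 3R. Without them 10 of 12 members were bound on the X, 10 of 12 on 2L, 12 of 14 on 3R, 6 of 11 on 2R and 6 of 13 on 3L. The unbound 3L members ND-MLRQ, ND-AGGG and UQCR-11 lay far from any peak of the IDR-thresholded list. Their nearest summits were 429119, 2066047 and 2210502 bp away, and none had a summit within 500 bp in any list. The nearest summit was the same for each of these genes, at rank 6324 of the IDR-thresholded list. The distances thus describe a stretch of 3L with no peak of that list. Whether reads can be placed in this stretch was not tested.

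Genes of the same pathway with names outside the prefixes were read as 4 lists. Of 9 genes for subunits or cytochrome c 8 were bound (88.9%). They included blw, the alpha subunit of ATP synthase, at a signal of 1783, above every member, and levy and cype, subunits of complex IV, at 1090 and 711. RFeSP, Cyt-c1 and ox of complex III had 349.5, 312 and 377. The cytochrome c genes Cyt-c-d and Cyt-c-p had 3133 and 491. The Cyt-c-d summit lay 361 bp downstream of a TSS, whereas the summits of the other bound genes of this list lay upstream. The gene that was not bound was sun, the epsilon subunit of ATP synthase, with a pooled summit of 109.97.

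Of 6 assembly factors 4 were bound, with CIA30 of complex I at 1951, Cox17, a copper chaperone, at 1207, Cox10 at 704 and Surf1 at 235, while Scox and Cox11 had no summit in any list. Of 7 matched genes for upkeep and control of mitochondria 4 were bound, namely PolrMT, the mitochondrial RNA polymerase (418), ewg (337.5) and Ets97D (274), the fly relatives of nuclear respiratory factors, and mtTFB1 (322). TFAM and mtTFB2 had pooled summits of 119.9 and 54.6, and srl, the fly relative of PGC-1, had none in the pooled list. Of 15 citric acid cycle and pyruvate dehydrogenase genes 8 were bound (53.3%), led by Idh3g (3141), Fum1 (1540) and Pdhb (1297). Over the 4 lists 24 of 37 genes were bound (64.9%), against 34.4% of all genes. The lists were picked by hand with earlier results of these data known, so this share is a description only. The Fum1 summit is also the one given to ND-ASHI above.

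The mitochondrial genome encodes 13 further subunits of these complexes, which the rule leaves out. The IDR-thresholded, pooled, replicate 2 and replicate 3 lists held 0 peaks there. Replicate 1 held 22, and at 9 of the 13 genes a summit of that list lay inside the gene.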

How the data were processed

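The deposited values are 5 lists of ChIP-seq peaks on dm6, 1 per replicate, 1 pooled and 1 IDR-thresholded. The deposited signal of a peak is the authors' measure of its strength, used only within a list, and the deposited summit offset, given in bases by the authors, locates its summit. Per the deposited file lists, the 3 replicates share 1 control. The aligner, the peak caller and their versions are not given in the sources used here, and read depth is unknown, so values carry no counting interval. The pooled list and each replicate list hold 30000 peaks. The IDR-thresholded list holds 8522, which are the 8522 pooled peaks of highest signal, and replicates were therefore compared over their top 8522 peaks on the chromosome arms.

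Genes and TSSs came from Ensembl release 115, and sequence from the RefSeq copy of the Release 6 assembly, whose arm coordinates are those of dm6. Where a gene had several summits, the one with the highest signal was used. Scripts ran in Python 3.11.15 with numpy 2.4.6 and pandas 2.3.3, and the assignment of summits to genes was tested on simulated peaks. With 1 group no test between conditions exists, and shares are given beside those of all genes.

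The members, lists and motifs were chosen with earlier results of these data known. Named genes were, for each complex, the 3 with the highest signals, the 7 core subunits of complex I, pairs with a bound gene, the 3 weakest bound members, the 3 unbound members with the highest pooled signals, and their neighbours. Others are said to be chosen later. Of the listed pathway genes, tam could not be matched to a single annotated gene.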

Additional observations from a re-analysis of the deposited data

Results flagged for a closer look

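Replicate 1 held 22 peaks on the mitochondrial genome, which lies outside the nuclear genes described above, and no other list held any. This drew attention because it is signal outside the main measurement. Of these peaks 9 were stronger than the strongest arm peak in that list, with a maximum signal of 4444 on the mitochondrial genome and 1859 on the arms. They were left out of all ranks. Its part in the results was not tested.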

How the results depend on the processing

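No paired analysis was possible because there is 1 group. The bound share of the members stayed above that of all genes under each of 11 alternatives, most narrowly in the stronger 50% of peaks (25% against 21.4%) and in peaks shared by all 3 replicates at a reciprocal overlap of 50% (19.3% against 15.6%). Counts of bound genes follow in the order all members, complexes I, II, III and IV, ATP synthase, members without the L suffix, L-suffixed members, parents and paralogues. The reported counts were 47, 22, 4, 3, 7, 11, 45, 2, 14 and 2. Summits within 100 bp of a TSS gave 24, 11, 2, 2, 3, 6, 24, 0, 5 and 0, with 13.1% of all genes bound. Within 250 bp the L-suffixed and paralogue counts were both 0, and complex III had 22.2%, against 29% of all genes. The stronger 50% of peaks gave 22, 10, 1, 1, 4, 6, 21, 1, 5 and 1. Complexes II (12.5%) and III (11.1%) were then below the 21.4% of all genes. Peaks shared by all 3 replicates gave 29, 14, 1, 3, 5, 6, 27, 2, 7 and 2, with complex II (12.5%) below the 26.2% of all genes. At a reciprocal overlap of 50% they gave 17, 8, 1, 1, 4, 3, 17, 0, 5 and 0. Complexes II (12.5%) and III (11.1%) were then below the 15.6% of all genes. With 1000 bp the L-suffixed and paralogue counts were 3 each, and complex III had 33.3%, against 38.2% of all genes. Under the single nearest TSS complex IV had 4 (25%), against 26% of all genes. Each replicate in turn was left out of the overlap filter, which kept peaks of the IDR-thresholded list overlapped by top peaks of the other replicates. The list itself was not rebuilt, so these counts could not exceed the reported ones. They were 31 to 39 members, 14 to 18 in complex I, 1 to 4 in complex II, 3 to 3 in complex III and 5 to 6 in complex IV. ATP synthase had 7 to 8, members without the suffix 29 to 37, those with it 2 to 2, parents 8 to 11 and paralogues 2 to 2. The share of all genes was 27.3% to 28.9%. Pooled summits within 100 bp were found at 34 members (38.6%, all genes 25.8%). The strongest peaks, cut to 50% of their number, were found at 27, 19 and 21 members in replicates 1, 2 and 3, and at 30.7%, 21.6% and 23.9% of them against 21.8%, 21.6% and 20.9% of all genes. With all replicate 2 peaks, 58 members had a summit (65.9%, all genes 51.4%). Motif counts were larger in windows of 100 bp to either side, with GGTCACACT at 5 member summits (10.6%, all promoter summits 5.22%) and TATCGATA at 6 (12.8%, all 9.88%).

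Read depth is unknown, so an unbound gene is one with no summit past the threshold, not one shown to lack the protein. The lists share alignments and a control, and the IDR-thresholded list is not independent of the replicates. Shares of groups as small as complex II or III move by many percentage points with 1 gene.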
